A study of Rattus norvegicus with 16 samples.

Results

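Rat neural stem and progenitor cells given platelet-derived growth factor of the AA type (PDGF-AA) for 6 d were read on 4 two-colour cDNA arrays, chosen by their titles out of 16 arrays in the series. The cells came from the neocortex of Sprague-Dawley rat embryos at embryonic day 14.5 and were expanded as monolayers in the presence of 10 ng/ml FGF-2, a fibroblast growth factor. For this group PDGF-AA at 10 ng/ml, added daily, took the place of FGF-2. The groups set beside it were cells with PDGF-AA for 12 h (4 arrays) and cells with no factor for 6 d (4 arrays). The second dye of every array carried a common reference, RNA from cells kept under FGF-2. The comparison asks what state the cells reached late under PDGF-AA, relative to cells held in the mitogen FGF-2.

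PDGF-AA is a dimer that signals through the receptor tyrosine kinase PDGFRα, encoded by Pdgfra, and is known as a mitogen for progenitors of the oligodendrocyte lineage. FGF-2 signals through FGF receptors and is used to keep cortical progenitors dividing. Both receptors feed the ERK pathway, which induces its own inhibitors, such as the Sprouty and SPRED proteins, and ETS transcription factors such as ETV5. Neural progenitors that leave the cell cycle can form neurons, astrocytes or oligodendrocytes, each with its own marker genes.

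All values below are log2 ratios of PDGF-AA 6 d over the FGF-2 reference unless another quantity is named, and 0 means no difference. The base of the deposited logarithms (taken as 2) and their direction are not stated. Sample over reference is the likely direction, because genes of DNA replication lie below 0 after the mitogen is withdrawn, and every sign and fold here rests on that reading. A log ratio gives no level, so the labelled cell type could not be checked against the presence of its markers. In these bulk cultures fewer cells of a type and less RNA per cell cannot be told apart. The RNA was rat and the cDNA mouse, so related genes may share a spot's signal. At least 2 RNA batches lay behind each group, but which arrays share one is not given, so p-values measure the spread between hybridisations.

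The 4 arrays differed among themselves. Sample RNA was in Cy5 on arrays 1 and 2 and in Cy3 on arrays 3 and 4. A number in the array titles, whose meaning is not given, was the same on arrays 2 and 3 and different on array 1 and on array 4. The number of array 4 is the commonest of the series, while those of arrays 1 to 3 occur in no other group. For arrays 1 to 3 this title number and the group therefore cannot be told apart. With the title number in the model, or with only the commonest number, the PDGF-AA 6 d ratio rests on array 4 alone. Such fits are near repeats of each other, so sizes rather than counts are given from them. The standard deviation over all genes and probes was 0.32, 0.45, 0.37 and 0.46 on arrays 1 to 4, so array 1 held the smallest ratios. Across genes and probes, which are not independent replicates, the correlation between pairs of these arrays ran from -0.171 (arrays 1 and 4) to 0.342 (arrays 3 and 4). With the dye effect removed, as estimated from the other 12 arrays, the pairs ran from -0.166 (arrays 1 and 3) to 0.351 (arrays 1 and 2). Array 4 stood apart in whole gene groups. The median ratio of DNA replication genes was 0.20, -0.00065, -0.07 and -0.69 on arrays 1 to 4 of PDGF-AA 6 d, against -0.64, -0.58, -0.74 and -0.25 on those of no factor 6 d. The median of astrocyte genes was -0.16, 0.05, 0.11 and 0.66 with PDGF-AA 6 d, against 0.97, 0.65, 0.65 and 0.28 with no factor 6 d. In both lists the array labelled PDGF-AA 6 d array 4 lay among arrays 1 to 3 of no factor 6 d, and the array labelled no factor 6 d array 4 lay between the other arrays of both groups. Likeness was not limited to no factor 6 d. Over all genes and probes, PDGF-AA 6 d array 4 correlated with Cy3 arrays of its title number in every other group. The values were 0.55 and 0.68 for no factor 6 d, 0.66 and 0.62 for no factor 12 h, and 0.51 and 0.50 for PDGF-AA 12 h. With array 3 of its own group, also Cy3, it was 0.34. What sets PDGF-AA 6 d array 4 and no factor 6 d array 4 apart was not tested, so results that turn on them are given with and without them.

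Of 12559 genes and unnamed probes tested with limma, 404 passed an adjusted p of 0.05 (3.22%), 238 of them higher (1.9%) and 166 lower (1.32%) with PDGF-AA 6 d. Among the 6241 named genes 276 passed (4.42%), of which 164 rose (2.63%) and 112 fell (1.79%). By the same test 13.7% of all genes and probes passed for no factor 6 d (6.99% higher, 6.73% lower) and 3.01% for PDGF-AA 12 h (0.661% higher, 2.35% lower). Of the 404, 336 had the same sign on all 4 arrays, against 2020 of all 12559. On arrays 1, 2, 3 and 4 the median size of the ratio among the 404 was 0.39, 0.65, 0.69 and 0.70, and 352, 400, 401 and 393 of them lay in the direction of the fitted value. Array 1 therefore held most of the exceptions. The count was 461, 157, 414 and 225 without array 1, 2, 3 and 4. It was 28 when the 4 arrays were fitted alone.

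**Figure D1:**
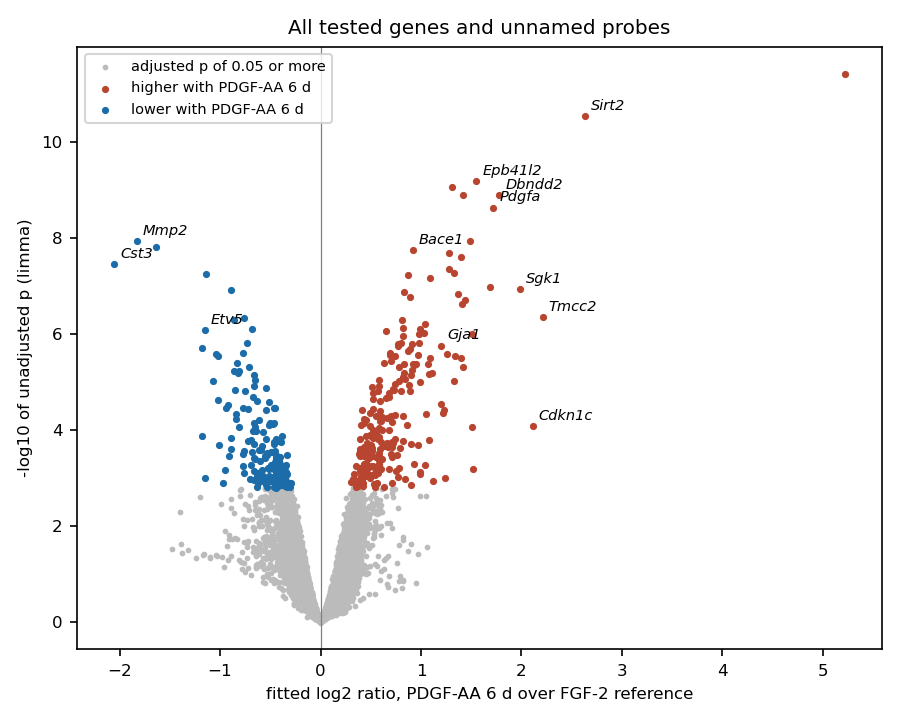
All 12559 genes and unnamed probes, with the fitted log2 ratio of PDGF-AA 6 d over the FGF-2 reference on the horizontal axis and -log10 of the unadjusted limma p on the vertical axis. Red points (238) were higher and blue points (166) lower with PDGF-AA 6 d at an adjusted p of 0.05, and grey points did not pass. The single point at the far right is an unnamed probe at 5.22, and Sirt2 at 2.63 is the highest named gene.

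The highest ratio of all belonged to an unnamed probe, H3152H08_1, singled out after its value was seen. It had 3.67, 5.50, 6.24 and 5.48 on the 4 arrays and a fitted value of 5.22 ± 0.29 (SE). On the arrays of no factor 6 d the same probe had 6.41, 6.71, 6.62 and 4.96, and with PDGF-AA for 12 h it had 0.93, 0.51, 0.42 and -0.08. It was thus high in both late groups and near 0 in the early one.

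Sirt2, which encodes a protein deacetylase abundant in oligodendrocytes, was the highest named gene. It had 1.51, 2.32, 3.28 and 3.42 on arrays 1 to 4, and the fitted ratio was 2.63 ± 0.17, a 6.20-fold rise (adjusted p = 1.78e-07). Pdgfa, the gene of the PDGF-A chain itself, had 0.83, 1.55, 2.08 and 2.43, with a fitted ratio of 1.72 ± 0.15 (adjusted p = 4.12e-06). Array 1 was the lowest for both genes, whose fitted dye effects (Cy5 minus Cy3) were -1.08 and -0.98. Cst3, which encodes the cysteine protease inhibitor cystatin C, was the lowest named gene at -1.64, -2.92, -2.66 and -1.01, with a fitted ratio of -2.06 ± 0.21 (adjusted p = 3.15e-05). Etv5, the ETS factor gene downstream of ERK, had -0.24, -1.42, -1.35 and -1.60, and its fitted ratio was -1.15 ± 0.15 (adjusted p = 0.000288). With no factor 6 d the fitted ratios were 3.09 for Sirt2, 1.82 for Pdgfa, -2.22 for Cst3 and -1.67 for Etv5. For none of them did the difference between these groups pass, so the changes are not particular to PDGF-AA.

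The promoters of these 4 genes are shown because Sirt2 and Cst3 are the highest and lowest named genes and Pdgfa and Etv5 belong to growth factor signalling. Each is the 250 bases before the annotated start, 5′ to 3′ on the gene's strand, from RefSeq for the rat build GRCr8. Capitals mark matches, on either strand, to the GC box GGGCGG, the CCAAT box CCAAT or the TATA box TATAAA. The ETS site CCGGAAG, the E-box CACGTG, the AP-1 site TGACTCA and the SOX site ACAAAG were also searched and have no match in these 4 windows. No match overlaps another.
Sirt2, chr1:93181222-93181471, plus strand: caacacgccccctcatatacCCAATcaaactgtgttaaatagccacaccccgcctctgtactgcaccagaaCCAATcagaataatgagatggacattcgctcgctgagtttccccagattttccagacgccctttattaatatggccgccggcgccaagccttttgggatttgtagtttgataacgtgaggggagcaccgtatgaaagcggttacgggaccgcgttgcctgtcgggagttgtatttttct
Pdgfa, chr12:20759116-20759365, plus strand: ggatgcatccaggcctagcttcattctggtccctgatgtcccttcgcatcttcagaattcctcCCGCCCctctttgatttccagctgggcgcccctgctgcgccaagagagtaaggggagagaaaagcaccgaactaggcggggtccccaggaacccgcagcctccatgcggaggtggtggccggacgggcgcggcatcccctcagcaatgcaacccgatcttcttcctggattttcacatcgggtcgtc
Cst3, chr3:156793938-156794187, minus strand: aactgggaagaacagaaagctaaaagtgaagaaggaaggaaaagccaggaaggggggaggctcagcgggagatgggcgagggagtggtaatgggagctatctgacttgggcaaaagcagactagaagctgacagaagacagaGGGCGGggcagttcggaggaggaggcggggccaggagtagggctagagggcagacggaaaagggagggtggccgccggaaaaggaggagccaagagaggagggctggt
Etv5, chr11:92113013-92113262, plus strand: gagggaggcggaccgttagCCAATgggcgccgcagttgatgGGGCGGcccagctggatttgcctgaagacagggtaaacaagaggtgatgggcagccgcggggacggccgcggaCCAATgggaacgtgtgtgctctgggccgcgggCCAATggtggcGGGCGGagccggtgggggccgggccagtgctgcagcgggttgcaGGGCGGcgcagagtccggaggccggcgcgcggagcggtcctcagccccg
Etv5 has 3 GC boxes and 3 CCAAT boxes, Sirt2 has 2 CCAAT boxes, and Pdgfa and Cst3 have 1 GC box each. Over 33469 rat promoter windows of this length, 30.5% hold the GC box, 34% the CCAAT box, 12.9% the TATA box, 16.3% the SOX site, 7.27% the ETS site, 5.59% the E-box and 4.05% the AP-1 site. GC content was 50% for Sirt2, 60.8% for Pdgfa, 58.8% for Cst3 and 72.4% for Etv5, beside a median of 51.2% over all windows. Of the 30 highest and lowest named genes, 25 had a promoter in the table, and a match is a description of letters only.

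The genes named next are from the 15 highest and 15 lowest called genes with 1 sign on all 4 arrays, so that their shared sign was part of the choice. Cdkn1c (2.11), Clu (1.52) and Igfbp5 (1.50), called but without 1 sign on all arrays, are given below. The other genes of the 15 highest encode membrane, cytoskeletal and signalling proteins. Tmcc2, a transmembrane coiled-coil protein, had 0.86, 2.50, 3.61 and 1.87 (2.21 ± 0.28, adjusted p = 0.000199). Sgk1, the serum- and glucocorticoid-regulated kinase, had 0.95, 2.95, 2.02 and 2.01 (1.98 ± 0.22, adjusted p = 6.83e-05). Dbndd2, which encodes a dysbindin-domain protein, had 1.28, 1.68, 2.39 and 1.76 (1.78 ± 0.15, adjusted p = 2.69e-06). Array 1 was the lowest for each of these 3 genes. Shroom2, an actin-associated protein, had the narrowest spread, at 1.66, 1.62, 1.88 and 1.60, and Epb41l2, of the protein 4.1 membrane skeleton family, had 1.35, 1.80, 1.84 and 1.21. Tnc, the matrix glycoprotein tenascin C, stood at 1.51 ± 0.20, Fnta, a subunit of protein farnesyltransferase, at 1.48 ± 0.14 and Lpar1, the receptor of lysophosphatidic acid, at 1.42 ± 0.21. The remaining 5 were Itm2a at 1.41, Plekha1 at 1.40, Abhd3 at 1.39, Tprn at 1.36 and the glutathione transferase gene Gstm1 at 1.33. Plekha1, a phosphoinositide-binding protein, was 0.34 on array 4 and at least 1.65 on the other arrays. With no factor 6 d the fitted ratios were 1.96 for Tmcc2, 1.39 for Sgk1, 1.62 for Dbndd2 and 1.70 for Shroom2. Epb41l2 stood at 1.29 there and Fnta at 1.40, and the other genes of the 15 also lay above 0.

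On the low side Antkmt (-1.15), Arc (-0.95), Sparcl1 (-0.89), Antxr2 (-0.84) and Snapc2 (-0.84) were called but without 1 sign on all arrays, and are named here for that reason alone. Among the 15 lowest with 1 sign, Mmp2, the gelatinase gene, followed Cst3 with -1.14, -2.50, -2.11 and -1.57 (-1.83 ± 0.17, adjusted p = 1.63e-05). Gas1, a membrane-anchored growth arrest protein, had -0.40, -1.61, -1.45 and -0.82, and its fitted ratio was -1.07 ± 0.17. Id1, an inhibitor of basic helix-loop-helix factors, had -0.23, -1.54, -1.58 and -0.73 (-1.02 ± 0.18). Arrays 2 and 3 gave the lowest values for each of these 3 genes. Nes, which encodes the progenitor intermediate filament nestin, ran differently, at -1.60, -1.14, -0.48 and -0.11, and its fitted ratio was -0.83 ± 0.12. Its Cy5 arrays (1 and 2) lay below its Cy3 arrays (3 and 4). The fitted dye effect of Nes, Cy5 minus Cy3, was -0.95 (limma, adjusted p = 5.93e-05), and with no dye term its call was lost. The fatty aldehyde dehydrogenase gene Aldh3a2 was at -1.02, the carbonyl reductase gene Cbr3 at -0.91, the metalloproteinase inhibitor gene Timp4 at -0.89 and the coronin gene Coro2b at -0.86. Septin9, Vgll4, Klf6, Tmem131l and Smoc1 lay between -0.86 and -0.81. With no factor 6 d, Mmp2 stood at -1.80, Gas1 at -0.98, Id1 at -0.82 and Nes at -0.89. Of the 15, only Tmem131l was not below 0 there, at 0.02. Calls were lost for Cbr3 without array 2, 3 or 4 (-0.75 to -1.22 over the single losses), for Timp4 without array 2 (-0.63) and for Smoc1 without array 2 (-0.76). With only the arrays of the commonest title number, that is array 4 for PDGF-AA 6 d, Timp4 stood at 0.01. Adding the title number to the model also leaves array 4 alone for PDGF-AA 6 d, so its values are those of 1 array with the dye fitted. Of the 69 called genes taken up by the naming rule, 14 were smaller there by more than 1.5 times or turned. They were Itm2a (0.60), Plekha1 (0.33), Col3a1 (0.50), Bnip3 (0.34), Ptpn11 (0.10), Cst3 (-0.98), Id1 (-0.61), Nes (-0.55), Psme1 (-0.34), Tgif1 (-0.33), Smoc1 (-0.25), Vgll4 (-0.16), Timp4 (-0.06) and Sparcl1 (0.08). Sirt2, Dbndd2, Pdgfa, Epb41l2, Fnta and Mmp2 kept their calls against the reference under every alternative run.

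**Figure D2:**
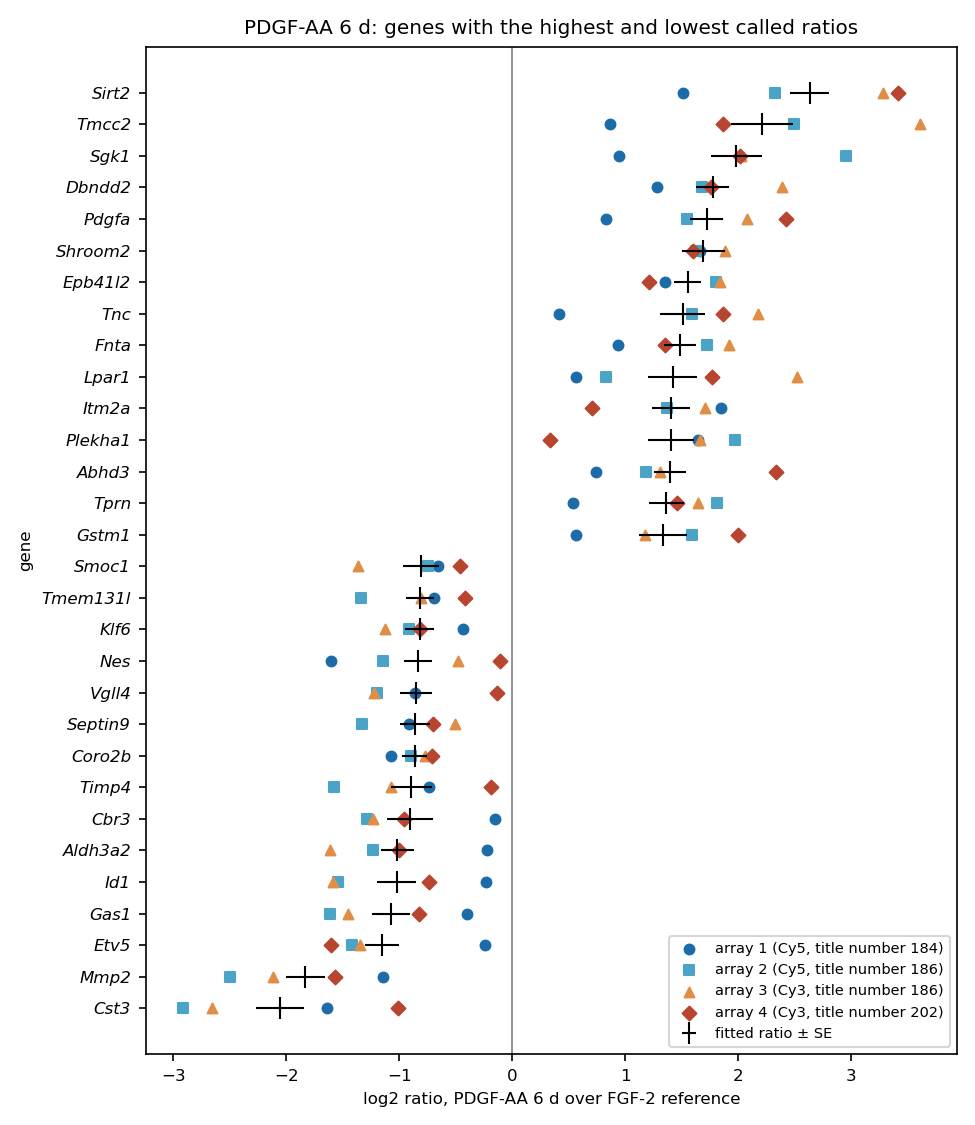
Log2 ratio of PDGF-AA 6 d over the FGF-2 reference for the 15 highest and 15 lowest called genes with the same sign on all 4 arrays, one row per gene. Coloured points are the single arrays and black bars the fitted ratio ± SE from limma (n = 4 arrays). Array 1 (dark blue circles) lies nearest to 0 for most genes, and Nes, Vgll4 and Timp4 are near 0 on array 4 (red diamonds). Arrays 1 and 2 are Cy5 and arrays 3 and 4 are Cy3, and Nes had a fitted dye effect of -0.95 (Cy5 minus Cy3).

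For lists with calls, the share called with PDGF-AA 6 d is given below in brackets, to be set beside 4.42% of all named genes. Calls with no factor 6 d were far more common over all genes. There 636 of the 6241 named genes were called higher and 499 lower, and list counts of that group are to be set beside these. Ligands, receptors and adaptors of PDGF and FGF signalling were mostly above 0. With no factor 6 d, 8 of them were called higher, at a median of 0.66. Of 10 measured, 3 rose and 0 fell with PDGF-AA 6 d (30%), with a median of 0.43 beside 0.004 over all genes and probes. Besides Pdgfa, these were Pdgfrb, the PDGF-B receptor gene (0.24, 0.45, 1.07 and 1.53; 0.82 ± 0.15), and Ptpn11, the SHP2 phosphatase gene (0.19, 0.43, 0.97 and 0.21; 0.45 ± 0.11). The Pdgfrb call was lost without array 4 (0.63) and the Ptpn11 call without array 2 or 3 (0.42 and 0.30). Pdgfra, the receptor gene for PDGF-AA, had 0.52, 0.08, 0.29 and 2.71, so that array 4 stood alone. Its fitted ratio was 0.90 ± 0.36 and did not pass (adjusted p = 0.229), and without array 4 it was 0.39. Fgfr1, an FGF receptor gene, had -0.49, -1.15, 2.56 and -0.36, where array 3 stood alone, and its fitted ratio of 0.14 ± 0.34 did not pass (adjusted p = 0.895). Without array 3 the Fgfr1 ratio was -0.63, past the threshold (adjusted p = 0.0197).

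Feedback genes of the ERK pathway lay on the low side, as with no factor 6 d, where the median was -0.51 and 4 were called lower. With PDGF-AA 6 d all 8 measured had fitted ratios below 0, with a median of -0.47, and 2 of them fell (25%). Beside Etv5, this was Spred2, which encodes an inhibitor of RAS and ERK signalling, at -0.42, -0.88, -0.93 and -0.85 (-0.77 ± 0.11). Spry4, a Sprouty inhibitor gene, had 0.55 on array 1 against -1.92, -1.24 and -2.19 on the others, and its fitted ratio of -1.20 ± 0.34 did not pass (adjusted p = 0.0667). Without array 1, 4 of the 8 were called lower and Spry4 was among them at -1.83. Of 10 immediate early genes, 1 fell (10%), Klf6, a zinc finger factor gene, at -0.82 ± 0.13. Egr1 had 0.43, -1.06, -1.58 and -0.43, with a fitted ratio of -0.66 (adjusted p = 0.158). Btg2, an antiproliferative gene, had -0.99, -1.14 and -0.96 on arrays 1 to 3 and 0.63 on array 4, with a fitted ratio of -0.61 (adjusted p = 0.145). Without array 1, and likewise without array 4, 2 of the 10 were called lower, and Btg2 was at -0.97 without array 4.

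Genes of mitosis were below 0 on 3 of the 4 arrays. Of 52 measured, 6 fell and 0 rose (11.5%), and 49 had a fitted ratio below 0. The median fitted ratio was -0.39, beside -0.72 with no factor 6 d, where 40 were called lower and 1 higher. On arrays 1 to 4 of PDGF-AA 6 d the median ratio was 0.25, -0.42, -0.48 and -0.83. Array 1 thus stood on the other side of 0 from the other arrays. The genes that fell included Aspm, a spindle pole protein (-0.19, -0.90, -0.76 and -1.22; -0.77 ± 0.18), and the checkpoint kinase gene Bub1 (0.29, -0.42, -0.77 and -1.76; -0.67 ± 0.17). Tacc3, of the spindle, stood at -0.63, the securin gene Pttg1 at -0.60 and the centrosomal kinase gene Nek2 at -0.56. The sixth was Cenpa, the centromeric histone gene, named here to complete the count, at -0.18, -0.49, -0.69 and -0.70 (-0.52 ± 0.09). Without array 1, 22 of the 52 were called lower. Without array 2 or without array 4, 1 was, and without array 3, 7 were. The calls of Aspm, Bub1, Tacc3, Pttg1 and Nek2 were each lost without array 2 and without array 4, and those of Aspm, Tacc3 and Pttg1 also without array 3.

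DNA replication genes held a single call with PDGF-AA 6 d, against 30 called lower and 0 higher with no factor 6 d. Of 46 measured, 1 fell and 0 rose (2.17%, below the 4.42% of all named genes), with a median of -0.15. Array 4 alone had a median well below 0, as given above. Mcm7, a subunit of the replicative helicase, was the gene that fell, at 0.17, -0.06, -0.77 and -1.22 (-0.47 ± 0.09), and its call was lost without array 4 (-0.35). Gmnn, which encodes the licensing inhibitor geminin, had 0.17, -0.22, -0.37 and -1.64, and its fitted ratio of -0.52 ± 0.17 did not pass (adjusted p = 0.127). Rrm1, of ribonucleotide reductase, had 0.36, -0.49, -0.37 and -1.31, with a fitted ratio of -0.45 (adjusted p = 0.245). Replication genes of the cells without factor also served to read the sign of the ratios, so their direction is no independent result. Whether the title number accounts for the gap between array 4 and arrays 1 to 3 was not tested.

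Of 19 inhibitors of cyclin-dependent kinases and growth arrest genes, 1 rose and 2 fell (15.8%). Cdkn1c, which encodes the inhibitor p57, had -0.34, 1.42, 2.69 and 4.68, the widest range among the named genes, and a fitted ratio of 2.11 ± 0.41 (adjusted p = 0.0069). The fitted dye effect of Cdkn1c, Cy5 minus Cy3, was -1.64 (limma, adjusted p = 0.00481). The Cdkn1c call was lost without array 4 (1.48) and with no dye term. Cdkn3, a phosphatase gene that is itself expressed with the cell cycle, fell with Gas1, at -0.72 ± 0.15, and its call was lost without array 4 (-0.49).

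**Figure D3:**
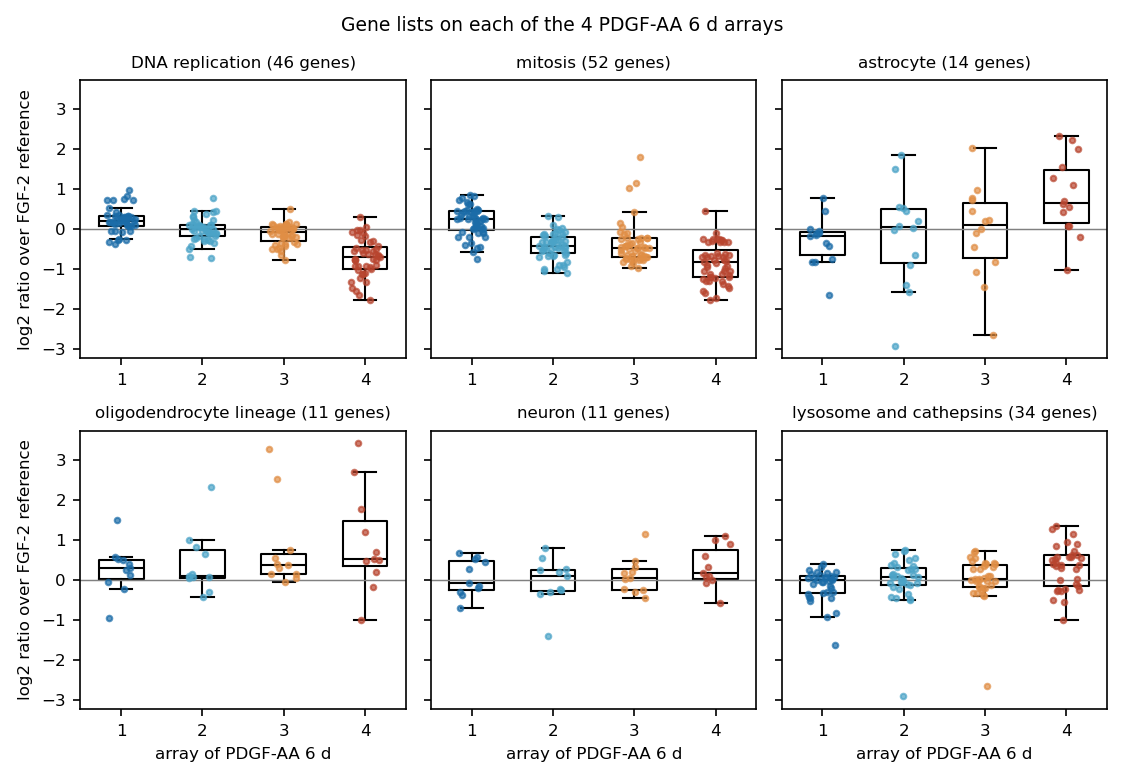
Log2 ratios over the FGF-2 reference of the measured genes of 6 lists on each PDGF-AA 6 d array, with 1 point per gene, boxes for the quartiles, a line at the median and whiskers to the last point within 1.5 box heights. Mitosis genes have a median of 0.25 on array 1 and -0.83 on array 4, and the astrocyte median is -0.16 on array 1 and 0.66 on array 4.

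Markers of the astrocyte lineage moved in both directions. With no factor 6 d, 8 of the 14 measured were called higher and 2 lower, at a median of 0.69. With PDGF-AA 6 d, 4 rose and 3 fell (50%), with a median of 0.12. Gja1, which encodes the gap junction protein connexin 43, had 0.77, 1.51, 0.97 and 1.55 (1.20 ± 0.17, adjusted p = 0.00046), and its call held in each single loss of an array. Clu, the gene of the secreted chaperone clusterin, had -0.16 on array 1 and 1.86, 2.03 and 2.34 on the others (1.52 ± 0.36, adjusted p = 0.0279). Entpd2, an ectonucleotidase gene, had 0.45, 0.55, 0.79 and 1.095 (0.72 ± 0.12, adjusted p = 0.00181), and Timp3, a metalloproteinase inhibitor gene named here only to complete the count, was the fourth that rose, at 0.71. The 3 that fell were Cst3, Timp4 and Sparcl1, a matricellular protein gene (-0.82, -1.38, -1.44 and 0.08; -0.89 ± 0.19). The Clu call was lost without array 2, 3 or 4 (1.35, 1.37 and 1.26), and the Sparcl1 call without array 2 or 3 (-0.72 and -0.68). When the title number was added to the model, Sparcl1 stood at 0.08. Without array 2, 2 of the 14 were called higher and 1 lower. Without array 4, 2 were called higher and 3 lower.

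Of 11 measured genes of the oligodendrocyte lineage, 10 had a fitted ratio above 0, with a median of 0.36, and 36.4% were called. With no factor 6 d the median was higher, at 0.61, with 8 called higher and 1 lower. The 3 that rose with PDGF-AA 6 d were Sirt2, Lpar1 and Cd9, a tetraspanin gene (0.29, 1.01, 0.39 and 0.69, fitted 0.60 ± 0.13). Lgals1, the galectin-1 gene, was the 1 that fell, at -0.95, -0.31, -0.05 and -1.02 (-0.58 ± 0.14). The Cd9 call was lost without array 2 or 4 (0.46 and 0.55) and the Lgals1 call without array 1 or 4 (-0.46 and -0.42). Sirt2 and Lpar1 were called in each single loss. No gene of a major myelin protein was among the 11, so the list rests on few defining members.

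Of 11 neuronal markers measured, 2 rose and 0 fell (18.2%, beside 4.42% of all named genes), with a median of 0.16. Ndn, the necdin gene, stood at 0.49 ± 0.12, and Dpysl2, a protein of axon growth, at 0.43 ± 0.10. The Ndn call was lost without array 1, 2 or 4 (0.50, 0.52 and 0.38) and the Dpysl2 call without array 2, 3 or 4 (0.40, 0.41 and 0.42). Tubb3, the neuronal tubulin gene, had -0.39, -0.30, 0.20 and 0.33, with Cy5 arrays below 0 and Cy3 arrays above 0, and a fitted ratio of -0.04 ± 0.10. Mapt, the tau gene, had -0.70, 0.19, 1.14 and 1.08 (0.43 ± 0.15, adjusted p = 0.144). Uchl1, a ubiquitin hydrolase gene, had -0.21, -0.24, -0.29 and -0.01 (-0.19 ± 0.10, adjusted p = 0.381).

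Of 11 progenitor genes, 1 rose, Tnc, and 2 fell, Nes and Id1 (27.3%), with a median of -0.08. These 3 calls held in each single loss of an array. Markers of other cells that such a culture could hold were called only in the list of fibroblast, pericyte and meningeal genes. Of 7 microglial or macrophage genes limma called 0 (1 at an unadjusted p under 0.05), and of 4 endothelial genes it called 0 (0 at an unadjusted p under 0.05), with medians of -0.04 and -0.07. Of 10 fibroblast, pericyte and meningeal genes 2 rose (20%, beside 4.42% of all named genes). They were Col3a1, a fibrillar collagen gene (0.89, 1.32, 1.42 and 0.55, fitted 1.04 ± 0.13), and Pdgfrb. The Col3a1 call was lost with the 4 arrays fitted alone, with the title number added (0.50), with the commonest title number alone (0.51) and with only the first listed feature of the gene (0.16). What part such cells have in the other changes was not tested.

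The extracellular matrix list held 33 genes, of which 11 were called higher and 5 lower with no factor 6 d. With PDGF-AA 6 d, 6 rose and 4 fell (30.3%). Igfbp5, which encodes a matrix-bound IGF binding protein, had -0.08, 2.08, 2.08 and 1.95 (1.50 ± 0.29). Sparc, the matricellular protein osteonectin, had -0.21, 1.31, 1.49 and 2.38 (1.24 ± 0.31). For both genes array 1 lay near 0 and apart from the others. The calls were lost for Igfbp5 without array 2 or 4 (1.26 and 1.38) and for Sparc without array 2, 3 or 4 (1.18, 1.19 and 0.87). Mmp2 and Tnc, given above, kept their calls. Without array 2, 1 of the 33 was called higher and 2 lower. Without array 3 the counts were 3 higher and 4 lower, and without array 4 they were 3 higher and 5 lower.

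In glutathione and antioxidant metabolism 4 of 26 rose and 1 fell (19.2%). Gstm1 (0.57, 1.59, 1.18 and 2.00), Gstm2 (0.89 ± 0.14) and Gstm6 (0.51 ± 0.11) are close paralogs of the mu class, and cross-hybridisation may join their signals. Cat, the catalase gene, had 0.52, 0.63, 0.42 and 0.47, nearly the same on each array (0.51 ± 0.08, adjusted p = 0.00169). Prdx4, a peroxiredoxin of the secretory pathway, stood at -0.54 ± 0.11. The Gstm6 call was lost without array 2, 3 or 4 (0.50, 0.51 and 0.52) and the Prdx4 call without array 2 or 4 (-0.48 and -0.46).

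Among 34 lysosomal genes and cathepsins, 15 were called higher and 1 lower with no factor 6 d. With PDGF-AA 6 d, 3 rose and 2 fell (14.7%), with Cst3 among those that fell. Ctsl, the cathepsin L gene, had 0.39, 0.54, 0.53 and 0.50 (0.49 ± 0.09, adjusted p = 0.00441), and its call held in each single loss. Psap, the saposin precursor gene, had -0.05, 0.72, 0.71 and 1.36 (0.68 ± 0.16). Arsa, an arylsulfatase gene, stood at 0.34 and Naglu, a glucosaminidase gene, at -0.34. Calls were lost for Psap without array 2, 3 or 4 (0.65, 0.70 and 0.46), for Naglu without array 2, 3 or 4 (-0.31, -0.32 and -0.36) and for Arsa in every single loss (0.29 to 0.36). Without array 2, 3 or 4 the counts were 1 higher each, and 1, 1 and 2 lower.

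Of 106 solute carriers, 5 rose and 0 fell (4.72%, near the 4.42% of all named genes). Slc6a8, the creatine transporter gene, had 0.50, 0.65, 1.23 and 0.95 (0.83 ± 0.09, adjusted p = 7.35e-05) and was called in each single loss. Slc15a4, Slc44a1, Slc6a6 and Slc30a9, transporters of peptides, choline, taurine and zinc, stood between 0.36 and 0.59, and each of these 4 calls was lost without at least 1 array, Slc30a9 without array 1, 2 or 4. Without array 2 and without array 4, 2 and 3 of the 106 were called higher. In glycolysis and hypoxia 2 of 22 rose (9.09%), Bnip3, a mitophagy receptor gene (0.58 ± 0.12), and Pfkl, of phosphofructokinase (-0.34, 0.13, 0.95 and 0.98, fitted 0.43 ± 0.10). Bnip3 was not called without array 2 (0.48), nor Pfkl without array 2, 3 or 4 (0.40, 0.37 and 0.36). Neither was called with no dye term, and the fitted dye effect of Pfkl, Cy5 minus Cy3, was -0.73. Of 13 genes of the BMP and TGF-beta response 2 fell (15.4%), Id1 and Tgif1, a homeobox corepressor gene (-0.50 ± 0.12, not called without array 2 or 4, at -0.32 and -0.56).

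Housekeeping groups held few calls. Of 27 cytosolic ribosomal protein genes limma called 0 (7 at an unadjusted p under 0.05), and 25 lay below 0, with a median of -0.17. The lowest was Rps27l, a ribosomal paralog known to respond to p53, at -0.42 (adjusted p = 0.0579). Limma called 0 of 57 genes of oxidative phosphorylation, 0 of 37 of splicing and 0 of 52 of chromatin, of which 4, 9 and 10 had an unadjusted p under 0.05. It also called 0 of 20 genes of sterol and fatty acid synthesis, 0 of 25 of endoplasmic reticulum stress and 0 of 11 of p53 and cell death, of which 6, 6 and 1 had an unadjusted p under 0.05. The medians of these 6 lists lay between -0.09 and -0.007, and leaving out single arrays gave at most 3 calls, for chromatin without array 1. Of 32 proteasome genes 1 fell (3.125%), Psme1, an activator subunit, at -0.52, and its call was lost in every single loss of an array (-0.46 to -0.57). Values of members that did not pass included 0.56 for the sterol enzyme gene Hmgcs1, -0.70 for the sterol regulator gene Srebf1, -0.65 for Mthfd2 of mitochondrial folate metabolism, -0.38 for the asparagine synthetase gene Asns and -0.67 for the chromatin protein gene Hmgb2.

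Set against PDGF-AA 12 h, the late state differed in 135 genes and probes (1.07%), 80 higher (0.637%) and 55 lower (0.438%). Both groups share the reference, so their ratios are given side by side and the difference itself was tested. Sirt2 had 1.51, 2.32, 3.28 and 3.42 at 6 d and 0.11, 0.94, 0.96 and 0.00 at 12 h, a difference of 2.13 ± 0.24 (adjusted p = 0.000334). Epb41l2 had 1.35, 1.80, 1.84 and 1.21 at 6 d and -0.20, -0.77, -0.46 and -0.63 at 12 h, a difference of 2.07 ± 0.17 (adjusted p = 1.84e-05). The values of the 2 times did not overlap for either gene, but both were chosen by the size of this difference. Differences of 2.15 ± 0.39 for Tmcc2, 2.04 ± 0.32 for Sgk1 and 1.78 ± 0.27 for Shroom2 completed the 5 highest. On the low side, Mmp2 had -1.14, -2.50, -2.11 and -1.57 at 6 d against -0.28, -0.14, 0.20 and -0.73 at 12 h, a difference of -1.59 ± 0.25 (adjusted p = 0.00413).

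Cst3 was lower at 6 d than at 12 h by -1.53 ± 0.30 and Vgll4, a cofactor of TEAD factors, by -1.27 ± 0.20. Mfge8, a phagocytosis bridging protein, had -1.22, -0.91, -0.45 and 0.98 at 6 d against 1.08, 1.16, 0.98 and 0.64 at 12 h (-1.37 ± 0.30, adjusted p = 0.0352). Serinc2, a serine incorporator gene, had -0.93, -0.24, 0.20 and 0.59 at 6 d against 1.19, 1.65, 1.14 and 0.60 at 12 h (-1.24 ± 0.23, adjusted p = 0.0152). Array 4 of PDGF-AA 6 d lay within the 12 h values for Mfge8 and just below them for Serinc2. Single losses ended the call of Mfge8 (array 1, 2 or 3 of 6 d, or array 1, 2 or 4 of 12 h; -1.18 to -1.41), of Cst3 (array 2 or 3 of 6 d, or array 1, 2 or 4 of 12 h; -1.23 to -1.56), of Serinc2 (array 1 or 2 of 12 h; -1.13 and -1.14) and of Tmcc2 (array 2 of 6 d; 1.98). The calls of Sirt2, Epb41l2, Sgk1, Shroom2, Mmp2 and Vgll4 held in each single loss. With the title number added, PDGF-AA 6 d rests on array 4 alone, so only sizes are given. The differences were then 2.41 for Sirt2, 1.69 for Tmcc2, 1.46 for Shroom2 and -1.43 for Mmp2. They were -0.58 for Vgll4, -0.45 for Cst3, -0.76 for Serinc2 and -0.22 for Mfge8. The commonest title number alone leaves the same array 4. There Mfge8 stood at -0.22, Cst3 at -0.42, Vgll4 at -0.58 and Serinc2 at -0.76. With no dye term the calls of Sirt2 (2.13, adjusted p = 0.0583), Mfge8 and Serinc2 were lost. In mitosis the median difference between the times was 0.51, with 1 gene called higher at 6 d, beside 0.01 over all genes and probes. All arrays at 12 h had the commonest title number. Leaving out array 2 or 4 of 6 d gave 48 and 211 genes and probes that differed. Leaving out array 1, 2 or 4 of 12 h gave 64, 65 and 85.

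**Figure D4:**
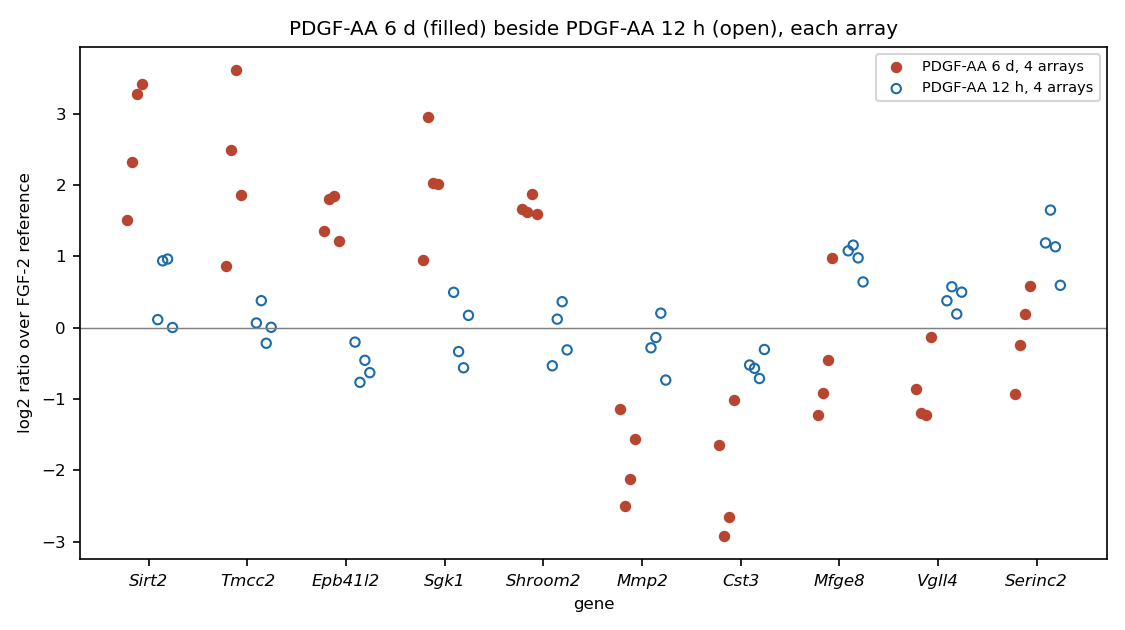
Log2 ratios over the FGF-2 reference on each array for the 5 genes highest and the 5 lowest at PDGF-AA 6 d (filled red, 4 arrays) relative to PDGF-AA 12 h (open blue, 4 arrays). The times overlap for Mfge8 alone among these 10 genes, and for Serinc2 the gap is 0.59 at 6 d against 0.60 at 12 h. The genes were chosen by the size of this difference, so separate values are no added evidence.

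Set against no factor 6 d, a single gene of 12559 differed (0.00796%, with 1100 at an unadjusted p under 0.05). Entpd2 had 0.45, 0.55, 0.79 and 1.095 with PDGF-AA 6 d and 2.34, 2.35, 2.28 and 1.71 with no factor 6 d, so that no array overlapped. As the gene was picked by this test, that is no added evidence. The difference was -1.45 ± 0.17 (adjusted p = 0.00203), and it held in each single loss of an array of either group. The Entpd2 call was lost with no dye term, with the title number added (-1.25), with the commonest title number alone (-1.27), with only arrays 2 and 3 of PDGF-AA 6 d (-1.50) and after quantile normalization (-1.06). Next by p were Atrn, the attractin gene, with 0.45, 0.40, 0.74 and 1.37 under PDGF-AA and 1.65, 1.71, 2.41 and 1.36 without factor (-1.04 ± 0.17, adjusted p = 0.0785), and Tiam2, an activator of RAC1 (-1.19 ± 0.20, adjusted p = 0.0789). Scarb2, a lysosomal membrane protein, differed by -0.72 ± 0.14 and Jun, the AP-1 subunit gene, by -0.90 ± 0.18, without passing. For most genes the interval of this difference was wide: its half-width at 95% confidence had a median of 0.36, so the test does not show that both late states are alike. Sirt2, for example, stood at 2.63 with PDGF-AA and 3.09 without factor, with an interval of the difference from -0.96 to 0.05.

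This count turned on array 4 of PDGF-AA 6 d. Without it, 58 genes and probes differed from no factor 6 d (0.462%), 11 higher (0.0876%) and 47 lower (0.374%) with PDGF-AA. Among DNA replication genes 5 of 46 were then called higher: Rrm2, of ribonucleotide reductase, by 1.55 ± 0.26, Mcm6 by 1.32 ± 0.23, Mcm2 by 1.17 ± 0.22, Gmnn by 1.04 ± 0.19 and Mcm7 by 0.69 ± 0.12. On array 4, Rrm2, Mcm2, Gmnn and Mcm7 lay within the values of no factor 6 d and Mcm6 just below them. Array 4 was in Cy3, and beside the Cy3 arrays 2 and 3 of no factor 6 d alone, Mcm2 and Gmnn still lay within. Rrm2 (-1.46 against -1.54 and -1.78) and Mcm7 (-1.22 against -1.37 and -1.60) lay above both. Gmnn, for example, was at -1.64 on array 4 of PDGF-AA 6 d and at -1.23, -1.34, -1.86 and -0.58 with no factor 6 d. Among 34 lysosomal genes 7 were then called lower and 0 higher: Psap, the glucosidase gene Gaa, the cathepsin genes Ctsd, Ctsa and Ctsh, Scarb2 and Lamp2, by -0.70 to -1.19. Psap itself had -0.05, 0.72, 0.71 and 1.36 with PDGF-AA 6 d and 1.90, 1.61, 1.84 and 1.22 with no factor 6 d. With all arrays the list medians of the difference were 0.40 for DNA replication and -0.29 for lysosomal genes, against 0.55 and -0.37 without array 4. Arrays 1 to 3 have title numbers that no other group has, so these 58 differences cannot be told apart from that number.

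Leaving out array 4 of no factor 6 d alone gave 1 call, as with all arrays. With array 4 of both groups left out, a choice made after the values were seen and so no independent evidence, 229 genes and probes differed (1.82%), 56 higher (0.446%) and 173 lower (1.38%) with PDGF-AA 6 d. All 58 of the smaller count were among them. PDGF-AA 6 d again rests on arrays 1 to 3 here, so these 229 differences too cannot be told apart from the title number. Pdgfra had 0.52, 0.08 and 0.29 on arrays 1 to 3 of PDGF-AA 6 d, against 2.07, 2.63 and 1.94 on those of no factor 6 d, and array 4 read 2.71 with PDGF-AA 6 d and -0.60 with no factor 6 d. For the receptor gene each array 4 thus lay nearer to arrays 1 to 3 of the other group than to those of its own, and why was not tested. The difference in Pdgfra was -0.61 ± 0.51 with all arrays (adjusted p = 0.777) and -1.85 ± 0.21 without both (adjusted p = 0.00139). Of 14 astrocyte genes 7 were then lower with PDGF-AA 6 d and 0 higher, Clu by -2.53 ± 0.49. Of 46 DNA replication genes 10 were higher and 0 lower, and of 34 lysosomal genes 8 were lower and 0 higher. Of 52 mitosis genes 1 was higher. Sirt2 was not called there either, at -0.64 ± 0.29 (adjusted p = 0.348).

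**Figure D5:**
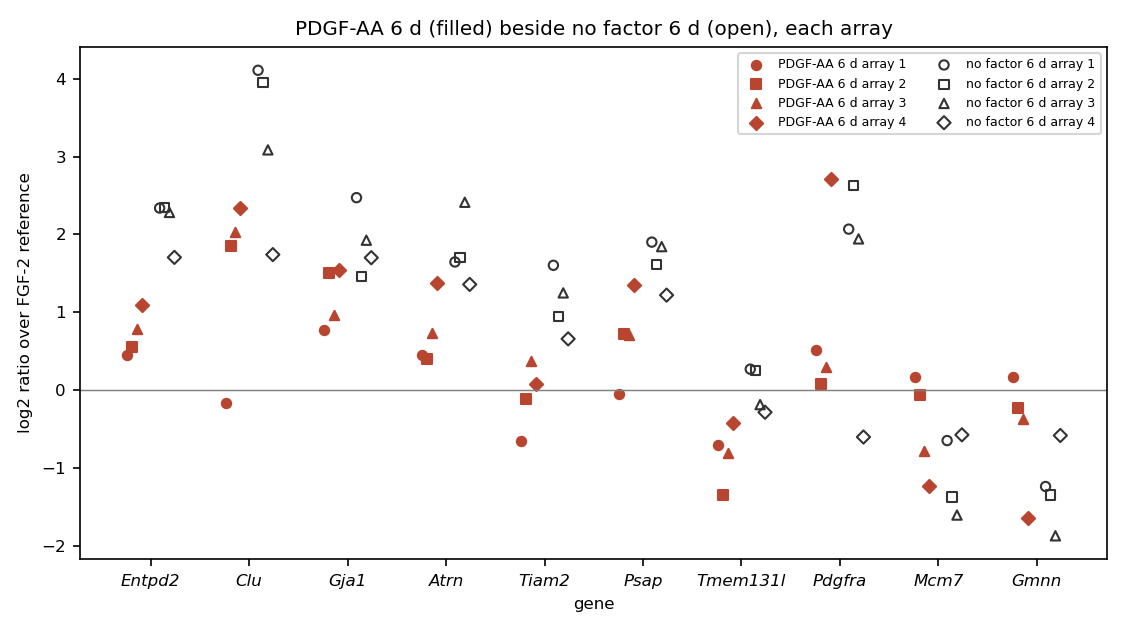
Log2 ratios over the FGF-2 reference of 10 genes on each array of PDGF-AA 6 d (filled red) and of no factor 6 d (open black). Entpd2 is the gene that passed with all arrays, and for Psap, Mcm7 and Gmnn the diamond of PDGF-AA 6 d array 4 lies within the open symbols. Array 4 was in Cy3. Beside the Cy3 arrays 2 and 3 of no factor 6 d alone, it lies within them for Gmnn but not for Psap or Mcm7.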

How the data were processed

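RNA (40 µg total per sample) was read on 16 two-colour mouse cDNA arrays per the labels' protocols, with FGF-2-treated cells as the common reference and the sample in Cy5 or Cy3. The authors' deposited values are 1 ratio per spot, taken here as log2 of sample over reference. How the ratios were corrected, normalized and logged, and which way they run, are points not given in the sources used here. No spot intensities were used, so their part in the precision was not tested. Of 15151 features, 8833 have 1 gene symbol in the mouse platform annotation, 606 have several and 5712 none. Features of 1 symbol were averaged to 6241 named genes, which with the other features made 12559 genes and probes. Each array was centred on its median. limma 3.58.1 in R 4.3.3 fitted the 4 groups of 4 arrays, cells with no factor for 12 h included, and the dye of the sample RNA. A feature needed at least 3 arrays per group. Tests were two-sided with Benjamini-Hochberg adjustment over all 12559 at 0.05 and took the reference as the control sample, so its own spread is left out.

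The median SE was 0.12 for a group and 0.17 for a difference. Tested on simulated data with 200 of 12559 changed, the fit recovered 52% at a log2 change of 0.5, 99% at 1 and 100% at 2, with 6, 8 and 8 false calls. The simulated noise was independent between genes and arrays, equal in spread on every array, and free of a title number effect. The real arrays differ in spread, so recovery and false calls in these data may be other than this. A dye effect passed the threshold in 4907 of 12559. Named genes were the 15 highest and 15 lowest called with 1 sign on all 4 arrays, up to 5 called members of each list (or 2 as values where under 2 were called) and up to 5 in each direction for the differences. A fixed set, with Pdgfra, Fgfr1, Tubb3, Mapt, Uchl1 and Spry4 among it, was named in every case, whatever the values. Members and lists were chosen with earlier results of these data known. The alternatives varied the dye term, the arrays fitted, the title number, the normalization, the filter, the averaging, array weights and single arrays; arrays 2 and 3 of PDGF-AA 6 d alone, and the loss of array 4 of both late groups, were added after seeing the data. Promoters came from RefSeq for GRCr8. Figures were drawn with matplotlib 3.10.9 in Python 3.11.15.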

Additional observations from a re-analysis of the deposited data

Results flagged for a closer look

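Among 132 groups of 4 values tested (named genes and list medians on the PDGF-AA 6 d arrays), 9 held 1 array far from the other arrays, and chance gives about 1 in 20. The count is not far from that rate, so no single item is evidence of more than chance. The rate is itself only a guide, because the dye effect was left in and many genes were chosen for 1 sign on all 4 arrays. Array 1 stood apart for Spred2 at -0.42, Igfbp5 at -0.083, Tgif1 at 0.021 and Slc44a1 at 0.99. Array 4 stood apart for Btg2 at 0.63, Scarb2 at 0.56, Pdgfra at 2.71 and the median of the p53 and cell death genes at 0.27. Array 3 stood apart for the median of the proteasome genes at 0.064.

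The test of the difference between groups passed for Entpd2, which was lower with PDGF-AA 6 d than with no factor 6 d by -1.45. Between PDGF-AA 6 d and PDGF-AA 12 h it passed for Tmcc2 at 2.15, Sirt2 at 2.13, Epb41l2 at 2.07, Sgk1 at 2.04 and Shroom2 at 1.78, all higher at 6 d. It passed for Mmp2 at -1.59, Cst3 at -1.53, Mfge8 at -1.37, Vgll4 at -1.27 and Serinc2 at -1.24, all lower at 6 d. Mfge8 is the 1 of these 11 differences whose arrays overlap between its groups. These genes were chosen by the size of a difference that passed, so the separate arrays of the others are no added evidence.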

How the results depend on the processing

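Against the reference, where 404 genes and probes were called, the count was 191 with no dye term, 28 with only the 4 arrays, 164 with the title number as a term, 175 with only the commonest title number, 622 with arrays scaled to a common spread, 619 with quantile normalization (323 higher, 296 lower) and 228 with array weights. Single losses gave 157 (without array 2) to 461 (without array 1). The other alternatives gave 292 to 531, apart from the fits on title number that leave array 4 alone for PDGF-AA 6 d, whose counts are not given. Against no factor 6 d, with 1 call, the count was 0 with no dye term, 0 with quantile normalization, 0 with arrays 2 and 3 of PDGF-AA 6 d only and 2 with scaled arrays, and 1 (without array 2 and others) to 58 (without array 4) in single losses. With array 4 of both groups left out it was 229. Entpd2 lay between -1.545 and -1.06 over its alternatives. Against PDGF-AA 12 h, with 135 calls, the count was 38 with no dye term, 12 with the title number as a term, 11 with the commonest title number alone, 204 with array weights and 48 to 211 in single losses. The cause of these changes was not tested.

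Of 69 called genes named, 67 changed sign under none of 17 alternatives and 35 were called in each single loss. Signs turned with the title number as a term for Btg2 (0.394), Sparcl1 (0.0808), C1qa (0.0631), Cdh5 (-0.0792), Srebf1 (0.181), Asns (0.161), Fgfr1 (-0.692) and Tubb3 (0.276). With only the arrays of the commonest title number they turned for Timp4 (0.0106), Btg2 (0.366), Sparcl1 (0.0749), C1qa (0.227), Cdh5 (-0.026), Srebf1 (0.176), Asns (0.144), Fgfr1 (-0.406) and Tubb3 (0.312). Fgfr1 also turned with quantile normalization (-0.0783) and array weights (-0.0446). Over single losses Fgfr1 lay between -0.634 (without array 3) and 0.499, C1qa between -0.462 and 0.157 (without array 2), Cdh5 between -0.0667 (without array 3) and 0.172, and Tubb3 between -0.134 and 0.0509 (without array 1). No paired analysis was possible because the replicate numbers are accession order and the labels do not say which arrays share an RNA batch. With the title number as a random block (correlation 0.0769), 332 were called. What limits the precision of these values was not tested. A change of 0.5 against the reference was recovered in 52% of simulated cases, whose noise was equal in spread on every array.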
